A study of Arabidopsis thaliana with 9 samples.

Results

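The Aux/IAA genes and the auxin-conjugating GH3 genes of Arabidopsis thaliana were followed in whole 10-day-old seedlings mutant for the histone deacetylase HDA9 or its partner POWERDRESS (PWR). Members were chosen by family and locus identifier, with earlier results of these data known. They were 29 Aux/IAA genes (IAA1 to IAA20 and IAA26 to IAA34) and 8 GH3 genes (GH3.1 to GH3.6, GH3.9 and GH3.17), 37 of the 29420 loci in the count table. A count in at least 1 library was found for 36 of them, and 31 passed the filter on low counts, 25 Aux/IAA and 6 GH3 genes, so that the counts of changed genes below refer to these 31 and not to all members. The 3 groups of 3 biological replicates were the pwr-2 mutant, the hda9-1 mutant and the wild type (WT), all of the Col ecotype and all raised on MS-agar in long days after a cold treatment of the seeds, with no added hormone named in the labels. Polyadenylated RNA was read with a stranded library kit, and the deposited values are read counts per gene.

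Aux/IAA proteins are short-lived nuclear repressors. They bind the auxin response factors (ARFs) on the promoters of auxin-induced genes and hold them inactive with the TOPLESS (TPL) corepressors. Auxin joins the domain II degron of an Aux/IAA protein to a receptor of the TIR1/AFB family, which leads to its destruction, and many Aux/IAA genes are themselves induced by the ARFs that are set free. GH3 enzymes of the group studied here link auxin to amino acids and so take it out of the active pool, and several of them are auxin-induced too. HDA9 removes acetyl groups from histones, and PWR is a SANT-domain protein that works with it.

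The in-frame codons of the degron core, for glycine, tryptophan, proline and proline, were searched in every annotated coding sequence of the RefSeq TAIR10.1 assembly and found in 23 of the 29 Aux/IAA genes and in 34 of 26710 coding genes in all. The 6 Aux/IAA genes without it were IAA20, IAA30, IAA31, IAA32, IAA33 and IAA34. The 4 stretches below show the core, in capitals, with 15 bases of coding sequence on each side, for the Aux/IAA gene that changed most (IAA6), its close relative IAA19, IAA28, which fell, and IAA5, which is related to IAA6 and IAA19 but did not rise. They lie at chr1:19673317-19673358 on the minus strand (IAA6), chr3:5264301-5264342 on the plus strand (IAA19), chr5:9033806-9033847 on the plus strand (IAA28) and chr1:5366269-5366310 on the minus strand (IAA5), each within an exon.
IAA6: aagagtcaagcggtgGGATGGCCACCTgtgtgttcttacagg
IAA19: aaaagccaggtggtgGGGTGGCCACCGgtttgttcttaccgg
IAA28: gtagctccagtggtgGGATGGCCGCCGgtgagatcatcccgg
IAA5: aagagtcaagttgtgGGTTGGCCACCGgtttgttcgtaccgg

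The promoters were searched for the auxin response element TGTCTC and its variant TGTCGG, which ARFs bind, and for the G-box, which reads CACGTG, on both strands of the 250 bases upstream of each annotated gene start. TGTCTC was present in 12 of the 37 member windows (32.4%) and in 10.9% of the 26709 windows of all protein-coding genes of the table. TGTCGG was present in 6 member windows (16.2%) and in 4.16% of all windows, and CACGTG in 5 (13.5%) and 6.58%. The 4-base core TGTC, which lies inside both response elements, was in 83.8% of member windows and in 74.8% of all windows. CATATG, another word searched, was in 13.5% of member windows and in 7.12% of all windows. In the 1000 bases upstream, TGTCTC was in 62.2% of member windows and 39.5% of all windows. TGTCGG was there in 24.3% and 14.6%, and CACGTG in 24.3% and 14.9%. The ratio of the member share to the share of all windows was smaller there for each of these words. Of the tested members with TGTCTC, IAA1, IAA5, IAA20, IAA30, IAA32 and GH3.3 were called in neither mutant, and IAA8 only in hda9-1. Without it, IAA2, IAA3, IAA7, IAA14, IAA16, IAA17, GH3.6 and GH3.17 rose in both. A link between the element and a rise was not tested. Below are the windows of the 2 Aux/IAA genes IAA6 and IAA19 and of the 2 GH3 genes GH3.5 and GH3.2. They were chosen because all 4 rose in both mutants and hold TGTCTC. Capitals mark these elements and the G-box on either strand. The windows are chr1:19673653-19673902 (IAA6, minus strand), chr3:5263751-5264000 (IAA19, plus strand), chr4:13653329-13653578 (GH3.5, plus strand) and chr4:17579368-17579617 (GH3.2, plus strand).
IAA6: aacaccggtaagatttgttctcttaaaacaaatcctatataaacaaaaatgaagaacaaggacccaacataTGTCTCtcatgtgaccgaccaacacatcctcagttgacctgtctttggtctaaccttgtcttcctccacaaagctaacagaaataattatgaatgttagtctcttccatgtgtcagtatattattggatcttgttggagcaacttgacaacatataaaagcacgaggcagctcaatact
IAA19: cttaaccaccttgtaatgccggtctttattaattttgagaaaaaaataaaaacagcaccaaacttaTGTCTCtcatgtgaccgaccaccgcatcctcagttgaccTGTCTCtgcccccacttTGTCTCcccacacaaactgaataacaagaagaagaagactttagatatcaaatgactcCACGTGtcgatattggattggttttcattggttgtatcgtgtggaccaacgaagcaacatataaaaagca
GH3.5: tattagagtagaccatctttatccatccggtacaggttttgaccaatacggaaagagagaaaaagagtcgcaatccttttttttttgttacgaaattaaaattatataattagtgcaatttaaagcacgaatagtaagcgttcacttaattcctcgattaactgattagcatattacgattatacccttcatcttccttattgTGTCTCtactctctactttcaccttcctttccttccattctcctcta
GH3.2: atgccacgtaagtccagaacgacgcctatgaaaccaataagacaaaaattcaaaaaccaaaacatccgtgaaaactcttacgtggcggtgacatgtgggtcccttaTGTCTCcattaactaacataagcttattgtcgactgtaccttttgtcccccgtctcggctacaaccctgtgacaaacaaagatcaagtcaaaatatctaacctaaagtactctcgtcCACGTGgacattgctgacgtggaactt

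IAA6 and IAA19 shared the longest run of bases of any of the 666 pairs of member windows, 23 bases against a median of 8. Its last base lies 159 bases upstream of the IAA6 start and 164 bases upstream of the IAA19 start, and among the 26709 windows, read on the transcribed strand, only these 2 hold it.
IAA6 and IAA19: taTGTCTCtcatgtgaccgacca
A run of 18 bases with the same element ranked second, between IAA20 and IAA30, and GH3.5 and GH3.6 shared 14 bases at the same distance of 112 bases from their starts. A match describes the letters of the window and was not tied to binding, which was not measured.

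Library totals lay between 6450661 and 11150773 counts, and 3 counts corresponded to 0.259 to 0.492 CPM, the unit used below, which is a gene's count scaled to a common library size by the library's total and its TMM factor. No gene held more than 0.0901% of the counts in any library, and how duplicate reads and very abundant transcripts were handled is not given in the sources used here. CPM, levels per kb and family shares therefore describe the deposited counts, and may not be proportional to the RNA. Fold changes rest on the same counts, and whether they were affected was not tested. HDA9 averaged 7.04 ± 0.44 CPM in hda9-1 and 38.0 ± 1.4 CPM in WT, and PWR averaged 48.7 ± 7.4 CPM in pwr-2 and 141 ± 6.8 CPM in WT (SD, n = 3 each). PWR was also called higher in hda9-1 (log2 fold change 0.44) and HDA9 lower in pwr-2 (-0.23). The HDA9 call in pwr-2 was lost with loess offsets (-0.10), with DESeq2 and without WT replicate 1 or 2 or pwr-2 replicate 2 or 3. The smallest library, hda9-1 replicate 3, stood apart from the other hda9-1 libraries, with a chi-square per gene of 4.91 and 3.13 against them, where all other pairs of the same group gave 1.61 to 2.78. It held the highest hda9-1 value for 16 of the 31 tested members and for 40% of all tested genes. Replicate 3 was likewise highest for 15 of the 31 in pwr-2 (34.6% of all tested genes) and for 14 in WT (38.2%). Results that turn on hda9-1 replicate 3 are given without it. Green shoot genes were abundant in every library, with a sum of 1580 to 1880 CPM for 5 markers, while the root-hair and root-tip genes EXPA7, EXPA18, PLT1, PRP3 and COBL9 had 11 to 46 counts over all 9 libraries together. Of the 10 root markers, 5 were therefore not tested, and the list's sum of 126 to 136 CPM in pwr-2, 123 to 124 CPM in hda9-1 and 118 to 129 CPM in WT came mostly from SCR and SHR, which shoots express too. The labels give whole seedlings as the tissue, and the part of missing root reads in the results was not tested. Flower markers summed to 6.73 to 14.8 CPM and seed storage markers to 0.43 to 3.09 CPM, with overlapping ranges in the 3 genotypes.

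More members were higher than lower in each mutant. In pwr-2, 12 of the 31 tested members rose and 2 fell, where 31.4% of all tested genes changed, 16.0% upward and 15.3% downward. In hda9-1, 15 of the 31 rose and 3 fell, where 34.2% of all tested genes changed, 17.6% upward and 16.6% downward. A change means an adjusted p under 0.05 in the quasi-likelihood F test of edgeR, fitted to all 9 libraries and adjusted over all 20171 tested genes, and every adjusted p below is from that test unless another tool is named. The median log2 fold change of the tested members was 0.18 in pwr-2 and 0.23 in hda9-1, against -0.01 and 0.00 over all tested genes, which were not matched to the members by level. All 3 libraries lay above all 3 WT libraries for 16 of the 31 members in pwr-2, where this was so for 25.6% of all tested genes, and for 15 in hda9-1, where it was so for 23.4%. They lay below for 2 members in pwr-2, against 24.7% of all tested genes, and for 4 in hda9-1, against 23.0%. Both comparisons use the same WT libraries and are therefore not independent. In whole seedlings, fewer cells of a type and less RNA per cell cannot be told apart. The split of all calls depended on the scaling: upward calls were 51.1% of the calls in pwr-2 and 51.6% in hda9-1, but 32.6% and 32.9% with upper-quartile factors, which still left 10 members higher and 2 lower in pwr-2 and 13 higher and 3 lower in hda9-1. With loess offsets, which scale by expression level, 12 members were higher and 1 lower in pwr-2, and 14 higher and 2 lower in hda9-1.

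**Figure D1:**
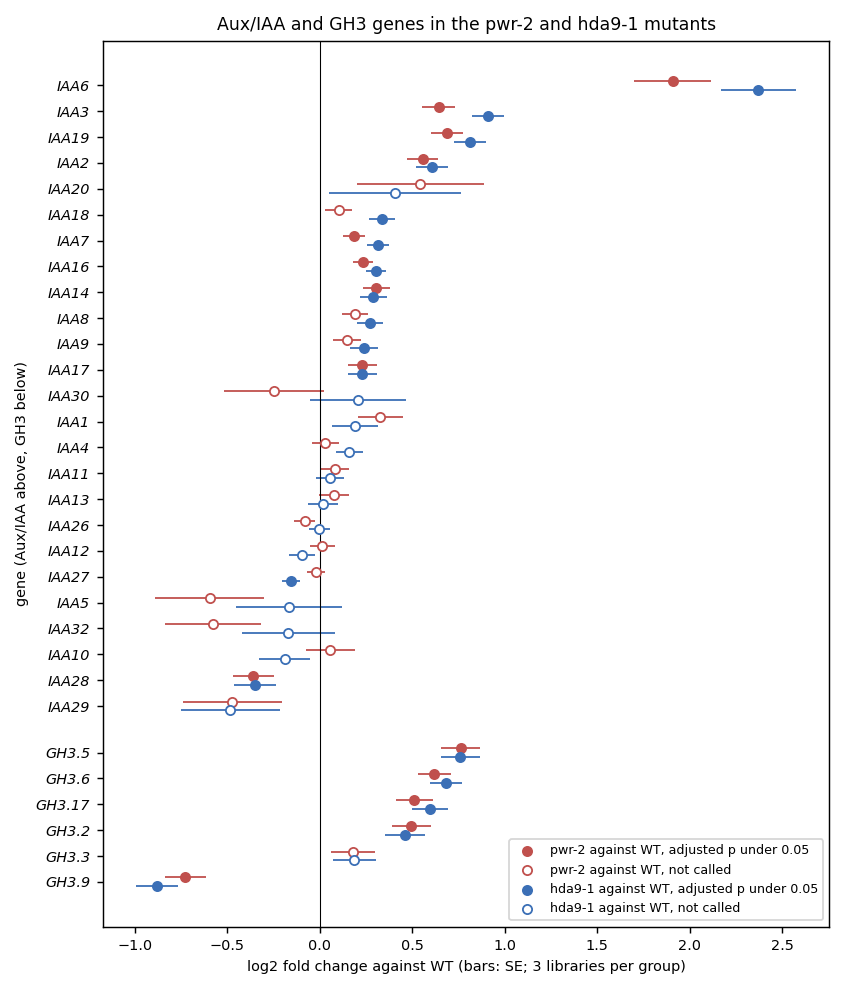
Log2 fold change (x axis) of each of the 31 tested Aux/IAA and GH3 genes (y axis), in pwr-2 against WT (red, upper point) and hda9-1 against WT (blue, lower point), with SE as bars and 3 libraries per group. Filled points have an adjusted p under 0.05; IAA6 lies farthest right, at 1.91 and 2.37, and GH3.9 farthest left among the filled points, at -0.73 and -0.88.

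The 14 members called in hda9-1 under all 17 other settings of the processing were IAA2, IAA3, IAA6, IAA7, IAA8, IAA14, IAA16, IAA18, IAA19, GH3.2, GH3.5, GH3.6, GH3.17 and GH3.9. In pwr-2 the 11 called under all 16 settings were IAA2, IAA3, IAA6, IAA14, IAA16, IAA19, GH3.2, GH3.5, GH3.6, GH3.17 and GH3.9. The other calls, of IAA9, IAA17, IAA27 and IAA28 in hda9-1 and of IAA7, IAA17 and IAA28 in pwr-2, were lost under some settings, which are given with each gene below. How many of all tested genes keep their call under every setting was not counted. The numbers of kept members therefore have no background to be read against.

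IAA6 (AT1G52830, chr1:19672476-19673652, minus strand), known as SHY1 from dominant mutants of light-dependent growth, had the largest change of the members. It had 9.60, 9.78 and 12.6 CPM in the pwr-2 libraries, 16.4, 15.1 and 12.3 CPM in the hda9-1 libraries, and 2.75, 2.16 and 3.78 CPM in the WT libraries. All 6 mutant libraries lay far above the 3 WT libraries, and the ranges of the mutants overlapped. The counts behind these values were 280 in pwr-2, 368 in hda9-1 and 86 in WT, summed over 3 libraries each. Its level was 3.75-fold that of WT in pwr-2 (log2 fold change 1.91, SE 0.21, adjusted p = 7.81e-05) and 5.17-fold in hda9-1 (2.37, SE 0.20, adjusted p = 9.89e-06). Among the other settings the log2 fold change ranged between 1.72 and 2.12 in pwr-2 and between 2.18 and 2.6 in hda9-1.

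IAA19 (AT3G15540, chr3:5264001-5265695, plus strand), known as MSG2 and as a regulator of hypocotyl bending, is the closest relative of IAA6 among the members, with 77.1% of aligned coding bases identical. It had 22.8, 22.8 and 22.9 CPM in pwr-2, 23.0, 24.6 and 27.5 CPM in hda9-1 and 14.3, 14 and 14.2 CPM in WT. Every mutant library was higher than every WT library, and each pwr-2 library was below each hda9-1 library. The pwr-2 and WT libraries hardly differed within their groups, and the hda9-1 libraries spread more. The rise was 1.61-fold in pwr-2 (log2 fold change 0.69, SE 0.09, adjusted p = 0.000189) and 1.76-fold in hda9-1 (0.81, SE 0.09, adjusted p = 3.85e-05).

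IAA3 (AT1G04240, chr1:1128149-1129689, minus strand) is SHY2, a repressor with a known part in setting root meristem size. It had 49.9, 61.6 and 66.1 CPM in pwr-2, 70.2, 71.4 and 73.1 CPM in hda9-1 and 38.6, 39.1 and 36.1 CPM in WT. The groups did not overlap at all: hda9-1 was highest, pwr-2 intermediate with the widest spread, and WT lowest. The log2 fold change was 0.64 (SE 0.09, adjusted p = 0.000332) in pwr-2 and 0.91 (SE 0.09, adjusted p = 1.84e-05) in hda9-1. Of the exon bases of IAA3, 39.6% are also exon bases of AT1G04230 on the other strand, and the strand setting of the counting is not given in the sources used here. AT1G04230 itself had 20.8 to 23.2 CPM in pwr-2, 21.1 to 22.6 CPM in hda9-1 and 22.2 to 24.3 CPM in WT, and did not pass the test in either mutant (adjusted p = 0.358 and 0.417).

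IAA2 (AT3G23030), a fast auxin-induced gene often used as an auxin reporter, had 75.9, 75.2 and 78.2 CPM in pwr-2, 75.4, 75.7 and 87.7 CPM in hda9-1 and 45.6, 52.4 and 58.6 CPM in WT. The mutants overlapped each other and lay above WT. Its log2 fold change was 0.56 (SE 0.08, adjusted p = 0.000677) in pwr-2 and 0.61 (SE 0.08, adjusted p = 0.000281) in hda9-1. IAA1 (AT4G14560), its nearest relative by coding sequence at 85.6% identity, had 27.3, 25.8 and 29.1 CPM in pwr-2, 25.7, 25.7 and 22.8 CPM in hda9-1 and 17.2, 23.0 and 25.6 CPM in WT. In pwr-2 all 3 values were just above the WT range, but the log2 fold change of 0.33 (SE 0.12) did not pass the test (adjusted p = 0.059). It passed without WT replicate 3 (adjusted p = 0.0206) and with loess offsets (0.43, adjusted p = 0.0269). IAA1 also did not pass in hda9-1, at 0.19 (SE 0.12, adjusted p = 0.264).

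IAA7, IAA14, IAA16 and IAA17 form a group of close relatives whose stabilised forms (AXR2, SLR and AXR3 for IAA7, IAA14 and IAA17) make plants resistant to auxin. IAA16 (AT3G04730) had 119, 114 and 112 CPM in pwr-2, 115, 120 and 128 CPM in hda9-1 and 97.3, 95.8 and 100 CPM in WT. IAA14 (AT4G14550), which represses lateral root formation, had 34.2, 34.0 and 31.1 CPM in pwr-2, 32.2, 32.7 and 33.3 CPM in hda9-1 and 26.5, 28.9 and 24.6 CPM in WT. In both genes the mutant ranges overlapped each other and stayed above WT. IAA16 changed by 0.23 (SE 0.05, adjusted p = 0.00809) in pwr-2 and 0.30 (SE 0.05, adjusted p = 0.00144) in hda9-1 on the log2 scale. IAA14 changed by 0.31 (SE 0.07, adjusted p = 0.00858) in pwr-2 and 0.29 (SE 0.07, adjusted p = 0.0104) in hda9-1.

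IAA7 (AT3G23050) had 93.8, 93.2 and 100 CPM in pwr-2, 99.7, 102 and 114 CPM in hda9-1 and 85.8, 82.6 and 84.8 CPM in WT, with no overlap between a mutant and WT. The log2 fold change was 0.18 (SE 0.06, adjusted p = 0.035) in pwr-2 and 0.31 (SE 0.06, adjusted p = 0.00209) in hda9-1. The pwr-2 call was lost when WT replicate 1, WT replicate 2 or any pwr-2 replicate was left out, at adjusted p of 0.0595, 0.0954, 0.0597, 0.0629 and 0.0926. It was also lost with loess offsets, which scale by expression level (0.08, adjusted p = 0.206), with upper-quartile factors (0.11, adjusted p = 0.0972) and with DESeq2 (adjusted p = 0.061). IAA17 (AT1G04250) had 36.3, 34.3 and 32.5 CPM in pwr-2, 34.9, 34.6 and 33.3 CPM in hda9-1 and 26.1, 30.3 and 31.8 CPM in WT. The highest WT library came within 1 CPM of the lowest pwr-2 library, without overlap. Its log2 fold change of 0.23 in each mutant (SE 0.08) had an adjusted p of 0.0413 in pwr-2 and 0.0418 in hda9-1, close to the threshold. In pwr-2 the call was lost without WT replicate 1 or 2, hda9-1 replicate 2 or pwr-2 replicate 1 or 2 (adjusted p = 0.175, 0.0745, 0.059, 0.142 and 0.106). In hda9-1 it was lost when WT replicate 1 or 2, any 1 of the hda9-1 replicates, or pwr-2 replicate 2 or 3 was left out (adjusted p = 0.19, 0.0791, 0.0955, 0.11, 0.0524, 0.0651 and 0.0525). Both calls were also lost with the replicate block, which pairs same-numbered libraries (adjusted p = 0.0592 in pwr-2 and 0.0589 in hda9-1), with upper-quartile factors (0.16, adjusted p = 0.157 in pwr-2, and 0.15, 0.179 in hda9-1), with DESeq2 (0.137 and 0.132) and over only the libraries of the mutant and WT (0.0511 and 0.0639).

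IAA8 (AT2G22670) and IAA9 (AT5G65670), a pair of longer Aux/IAA genes whose transcripts respond little to auxin, had the highest levels per kb of exon among the Aux/IAA members. IAA8 had 153, 147 and 147 CPM in pwr-2, 149, 148 and 177 CPM in hda9-1 and 129, 127 and 136 CPM in WT. IAA9 had 129, 124 and 134 CPM in pwr-2, 129, 132 and 154 CPM in hda9-1 and 114, 111 and 126 CPM in WT. The highest value of each gene was that of hda9-1 replicate 3, and in IAA9 the pwr-2 and WT ranges overlapped. IAA8 rose in hda9-1 by 0.27 (log2, SE 0.07, adjusted p = 0.0119), and in pwr-2 its 0.19 (SE 0.07) missed the threshold (adjusted p = 0.057). It passed there without WT replicate 3, hda9-1 replicate 1 or hda9-1 replicate 3 (adjusted p = 0.0426, 0.0385 and 0.00576), with no filter on low counts (0.0474), over only the pwr-2 and WT libraries (0.0066) and with the replicate block (0.0464). IAA9 rose in hda9-1 by 0.24 (SE 0.07, adjusted p = 0.0277), a call that was lost without WT replicate 1, WT replicate 2 or hda9-1 replicate 3 (adjusted p = 0.0835, 0.102 and 0.0618). The call was also lost with loess offsets (0.10, adjusted p = 0.132), with upper-quartile factors (0.16, adjusted p = 0.0642) and over only the hda9-1 and WT libraries (adjusted p = 0.0577). IAA9 did not pass in pwr-2 (0.15, SE 0.07, adjusted p = 0.154).

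IAA18 (AT1G51950), known from dominant mutants with altered lateral root and embryo development, had 53.4, 62.8 and 65.7 CPM in pwr-2, 73.7, 71.4 and 69.0 CPM in hda9-1 and 57.1, 58.7 and 53.6 CPM in WT. The hda9-1 libraries lay above all others, and the pwr-2 libraries spread across the WT range. The gene rose in hda9-1 (log2 fold change 0.34, SE 0.07, adjusted p = 0.00397) and did not pass in pwr-2 (0.10, SE 0.07, adjusted p = 0.3). Its relative IAA26, at 82.2% identity, had 46.4 to 52.2 CPM in pwr-2, 49.2 to 53.6 CPM in hda9-1 and 51.6 to 52.5 CPM in WT, with log2 fold changes of -0.08 and 0.00 that did not pass.

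Among the Aux/IAA genes, IAA28 fell in both mutants and IAA27 fell in hda9-1. IAA28 (AT5G25890), a repressor of lateral root formation whose transcript is known not to be induced by auxin, had 12.1, 12.1 and 10.6 CPM in pwr-2, 12.7, 11.7 and 10.3 CPM in hda9-1 and 14.1, 15.7 and 14.9 CPM in WT. The mutants overlapped each other and lay below WT. Its log2 fold change was -0.36 (SE 0.11, adjusted p = 0.0289) in pwr-2 and -0.35 (SE 0.11, adjusted p = 0.0316) in hda9-1. In pwr-2 the call was lost when any 1 of the WT or pwr-2 replicates was left out (adjusted p = 0.0551, 0.115, 0.062, 0.0542, 0.0612 and 0.109), with DESeq2 (0.116) and with loess offsets (-0.17, 0.213). In hda9-1 it was lost when any 1 of the WT replicates, or hda9-1 replicate 2 or 3, was left out (adjusted p = 0.0513, 0.116, 0.0637, 0.0772 and 0.0863), with DESeq2 (0.128) and with loess offsets, where its log2 fold change was -0.16 (0.259).

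IAA27 (AT4G29080), also called PAP2, had 46.7, 47.6 and 47.1 CPM in pwr-2, 42.7, 43.1 and 43.1 CPM in hda9-1 and 46.7, 49.6 and 47.2 CPM in WT. The hda9-1 libraries lay below all others, by a few CPM. The log2 fold change was -0.02 (SE 0.05, adjusted p = 0.765) in pwr-2 and -0.16 (SE 0.05, adjusted p = 0.0284) in hda9-1, and the hda9-1 call was lost without WT replicate 2, hda9-1 replicate 1 or hda9-1 replicate 2 (adjusted p = 0.116, 0.0558 and 0.0613), with DESeq2 (0.219) and over only the hda9-1 and WT libraries (0.0528). It shares 2.86% of its exon bases with AT4G29070 on the other strand, which was higher in hda9-1 (log2 fold change 0.21).

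**Figure D2:**
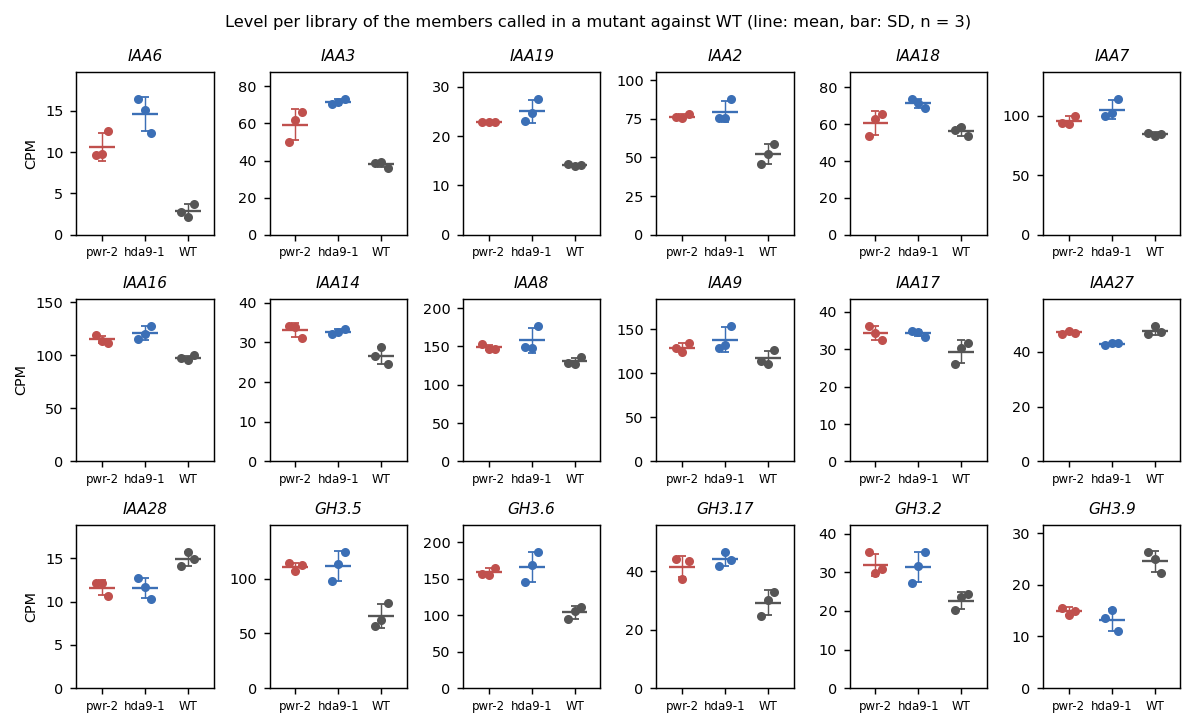
Level in CPM (y axis, from 0) of the 18 Aux/IAA and GH3 genes called in at least 1 mutant, in each pwr-2 (red), hda9-1 (blue) and WT (grey) library, with the group mean as a line and SD as a bar (n = 3). In IAA6 the mutant libraries lie at 9.60 to 16.4 CPM and the WT libraries at 2.16 to 3.78 CPM, while GH3.9, IAA28 and IAA27 in hda9-1 lie below WT.

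The remaining tested Aux/IAA genes did not pass in either mutant. IAA4 (AT5G43700), at 85.2% coding identity to IAA3, had 57.2 to 65.8 CPM in pwr-2, 64.1 to 71.3 CPM in hda9-1 and 56.1 to 65.8 CPM in WT, with log2 fold changes of 0.03 and 0.16. In hda9-1 it passed with the replicate block (adjusted p = 0.0245, against 0.109 without) and without WT replicate 3 (adjusted p = 0.0303). IAA10, IAA11, IAA12 and IAA13 had log2 fold changes of 0.01 to 0.08 in pwr-2 and of -0.19 to 0.05 in hda9-1, none of which passed. IAA12, the BDL repressor of embryonic root formation, had 34.8 to 40.7 CPM in pwr-2, 33.3 to 35.6 CPM in hda9-1 and 35.9 to 37.4 CPM in WT. IAA29, a gene known to respond to shade, was below 10 CPM in every library, with 5.27 to 6.03 CPM in pwr-2, 2.95 to 7.06 CPM in hda9-1 and 5.43 to 9.69 CPM in WT, and log2 fold changes of -0.47 (SE 0.27) and -0.48 (SE 0.27). It passed in hda9-1 with the replicate block over the 6 hda9-1 and WT libraries (adjusted p = 0.0287).

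IAA5, IAA20, IAA30 and IAA32 had the fewest counts of the tested members, 103 to 375 each over the 9 libraries. IAA5, auxin-induced and a relative of IAA6 and IAA19, had 1.60, 1.5 and 1.14 CPM in pwr-2, 1.68, 2.21 and 1.80 CPM in hda9-1 and 2.65, 2.16 and 1.53 CPM in WT. Unlike in IAA6 and IAA19, no mutant group stood above WT, and its log2 fold changes of -0.60 (SE 0.29, adjusted p = 0.143) and -0.17 (SE 0.28, adjusted p = 0.682) did not pass. IAA20 had log2 fold changes of 0.54 (SE 0.35) and 0.41 (SE 0.36), IAA30 of -0.25 (SE 0.27) and 0.20 (SE 0.26), and IAA32 of -0.58 (SE 0.26) and -0.17 (SE 0.25), in pwr-2 and hda9-1. IAA32 passed in pwr-2 without pwr-2 replicate 1 (adjusted p = 0.0382), and 44.2% of its exon bases are shared with AT2G01210 on the other strand. IAA20, IAA30 and IAA32 lack the degron core codons, and the other Aux/IAA genes without them, IAA31, IAA33 and IAA34, had 36, 6 and 19 counts over all libraries and were not tested. IAA15, which has the core codons, had 9 counts. These 4 genes had too few counts to be compared. Exon bases shared with another annotated gene also make the counts of IAA13 (35.3%), IAA10 (27.6%), IAA34 (12.3%) and IAA5 (6.15%) uncertain.

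GH3.6 and GH3.5 had the highest levels per kb of exon among the GH3 members. GH3.5 (AT4G27260, WES1), which acts on auxin and in laboratory assays on salicylic acid, had 114, 107 and 112 CPM in pwr-2, 97.5, 113 and 124 CPM in hda9-1 and 57.1, 62.6 and 77.9 CPM in WT. GH3.6 (AT5G54510, DFL1), whose overexpression gives dwarfed light-grown plants, had 156, 155 and 165 CPM in pwr-2, 145, 168 and 186 CPM in hda9-1 and 94.0, 106 and 111 CPM in WT. In both genes the mutants overlapped each other and lay above WT, with the widest spread in hda9-1. GH3.5 was 1.69-fold of WT in each mutant (log2 fold change 0.76; SE 0.11; adjusted p = 0.000385 in pwr-2 and 0.000289 in hda9-1). GH3.6 was 1.54-fold of WT in pwr-2 (0.62, SE 0.09, adjusted p = 0.000421) and 1.61-fold in hda9-1 (0.68, SE 0.09, adjusted p = 0.000158).

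GH3.17 (AT1G28130), which favours glutamate as the partner of auxin, had 44.1, 37.4 and 43.4 CPM in pwr-2, 41.9, 46.5 and 43.8 CPM in hda9-1 and 24.7, 30.2 and 32.9 CPM in WT. GH3.2 (AT4G37390, YDK1) had 35.2, 29.8 and 30.8 CPM in pwr-2, 27.3, 31.7 and 35.2 CPM in hda9-1 and 20.2, 23.5 and 24.3 CPM in WT. The mutant libraries of both genes lay above WT and overlapped each other. GH3.17 rose by 0.51 (SE 0.10, adjusted p = 0.00283) in pwr-2 and by 0.60 (SE 0.10, adjusted p = 0.000873) in hda9-1 on the log2 scale. GH3.2 rose by 0.49 (SE 0.11, adjusted p = 0.00509) in pwr-2 and by 0.46 (SE 0.11, adjusted p = 0.00666) in hda9-1. GH3.2 is 90.9% identical in coding sequence to GH3.4, which had no count in any library, and 1.14% of the 50-base words of GH3.2 recur elsewhere in the genome.

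GH3.3 (AT2G23170), an auxin-induced gene at 81.4% coding identity to GH3.2, had 30.7, 33.3 and 31.3 CPM in pwr-2, 25.8, 33.6 and 37.7 CPM in hda9-1 and 30.1, 25.3 and 29.0 CPM in WT. The pwr-2 libraries lay just above WT, while 1 hda9-1 library lay within the WT range and the other two above it. Its log2 fold changes of 0.18 (SE 0.12, adjusted p = 0.26) and 0.19 (SE 0.12, adjusted p = 0.242) did not pass, but without hda9-1 replicate 1 it passed in hda9-1 (0.33, adjusted p = 0.0175). GH3.1 had 41 counts over all libraries and was not tested.

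GH3.9 (AT2G47750, chr2:19560127-19563960, minus strand), which has been linked to primary root growth, changed the other way. It had 15.6, 14.1 and 14.9 CPM in pwr-2, 13.5, 15.1 and 11.0 CPM in hda9-1 and 26.3, 25 and 22.3 CPM in WT. All 6 mutant libraries lay well below WT. Its level was 0.604 of WT in pwr-2 (log2 fold change -0.73, SE 0.11, adjusted p = 0.000735) and 0.543 of WT in hda9-1 (-0.88, SE 0.11, adjusted p = 0.000168). Of its exon bases, 9.03% are shared with an annotated gene on the other strand, which was not analysed here.

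Summed over the family, Aux/IAA genes took 1120 ± 21 CPM in pwr-2, 1180 ± 39 CPM in hda9-1 and 984 ± 20 CPM in WT, with ranges of 1100 to 1140, 1150 to 1230 and 965 to 1010 CPM. GH3 genes took 390 ± 11 CPM in pwr-2, 399 ± 44 CPM in hda9-1 and 274 ± 22 CPM in WT, with ranges of 378 to 398, 352 to 437 and 253 to 298 CPM (SD, n = 3 each). In both families the WT libraries lay below all mutant libraries. On the same libraries the green shoot markers summed to 1690 to 1740 CPM in pwr-2, 1640 to 1880 CPM in hda9-1 and 1580 to 1610 CPM in WT, also with WT lowest. Their part in the family sums was not tested.

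**Figure D3:**
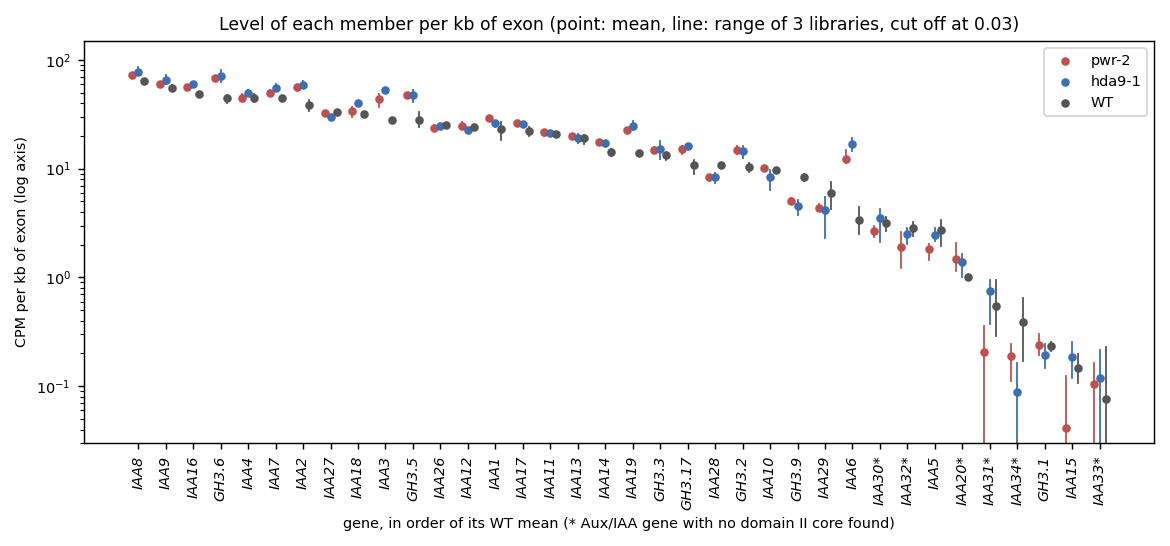
Level of all members except GH3.4, which had no count, in CPM per kb of exon (y axis, log scale), in the order of the WT mean. Colours are pwr-2 (red), hda9-1 (blue) and WT (grey). Points are means and lines the range of 3 libraries, and values under 0.03 are off the axis. IAA8 leads at 63.5 CPM per kb in WT, and IAA6 stands 27th in WT at 3.38 but reaches 12.4 in pwr-2 and 17.0 in hda9-1.

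Levels of different genes were compared per kb of exon. In WT, IAA8 had the highest level at 63.5 ± 2.3 CPM per kb, followed by IAA9 at 54.7 ± 3.7, IAA16 at 48.2 ± 1.1, GH3.6 at 44.7 ± 3.8, IAA4 at 44.3 ± 3.7 and IAA7 at 44.2 ± 0.86 (SD, n = 3). The last 3 of these differed by less than their spread. IAA8, IAA9 and IAA16 held 10.8%, 9.28% and 8.17% of the Aux/IAA sum per kb, so that no member dominated the family, whereas GH3.6 held 38.7% and GH3.5 24.1% of the GH3 sum. In the mutants these GH3 shares were 41.3% and 28.4% in pwr-2 and 42.3% and 27.9% in hda9-1. IAA6 stood 27th of the 37 members in WT, at 3.38 ± 0.96 CPM per kb, and had 12.4 ± 2.0 in pwr-2 and 17.0 ± 2.4 in hda9-1, above its WT neighbours IAA29, at 4.34 ± 0.31 in pwr-2 and 4.18 ± 1.7 in hda9-1, and IAA30, at 2.65 ± 0.31 and 3.53 ± 1.2.

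Some members sit close together in the genome. IAA3 and IAA17 on chromosome 1 are 6388 bases apart, IAA1 and IAA14 on chromosome 4 are 10732 bases apart, and IAA2 and IAA7 on chromosome 3 are 12510 bases apart, each pair in opposite orientation. In hda9-1 the fold changes within the pairs were 0.91 and 0.23 for IAA3 and IAA17, 0.19 and 0.29 for IAA1 and IAA14, and 0.61 and 0.31 for IAA2 and IAA7 on the log2 scale. In pwr-2 the same pairs had 0.64 and 0.23, 0.33 and 0.31, and 0.56 and 0.18. The differences within pairs were not tested.

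**Figure D4:**
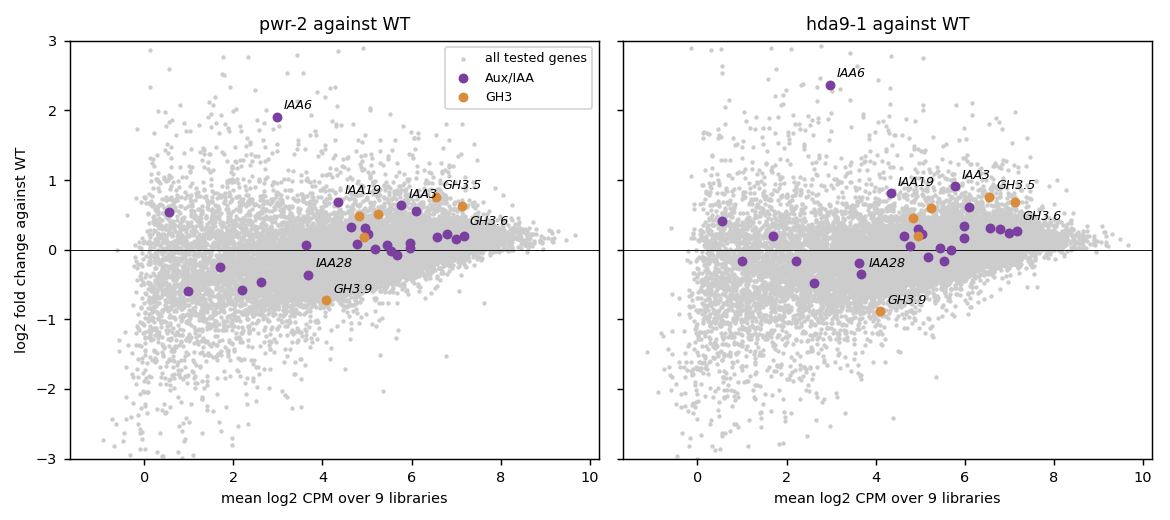
Log2 fold change against WT (y axis) by mean log2 CPM over 9 libraries (x axis) for all tested genes (grey), Aux/IAA genes (purple) and GH3 genes (orange), with pwr-2 left and hda9-1 right; genes beyond 3 on either side are off the axis. Most members with a mean log2 CPM above 4 lie above 0, IAA6 lies apart at 1.91 and 2.37, and GH3.9 lies below.

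The 2 mutants were also compared with each other. None of the 31 tested members differed between pwr-2 and hda9-1 in edgeR, where 0.421% of all tested genes did, and none did in DESeq2. An unadjusted p under 0.05 was reached by 4 members, IAA3, IAA18, IAA6 and IAA27, with a smallest adjusted p of 0.173. IAA3 had a log2 fold change of -0.27 in pwr-2 against hda9-1, with a 95% interval of -0.45 to -0.09, and IAA18 of -0.24, with an interval of -0.39 to -0.08. In both genes all pwr-2 libraries lay below all hda9-1 libraries, which was so for 4 of the 31 members, and 2 lay wholly above, where the shares of all tested genes were 8.70% and 9.16%. IAA6 had -0.46, with an interval of -0.85 to -0.08, and IAA27 had 0.13, with an interval of 0.03 to 0.24. GH3.5 had 0.00 with an interval of -0.22 to 0.23, GH3.6 -0.06 with an interval of -0.25 to 0.12, and GH3.9 0.15 with an interval of -0.11 to 0.42. The 95% intervals of the members were 0.21 to 1.49 wide. A gene called in hda9-1 and not in pwr-2, such as IAA8, IAA9, IAA18 or IAA27, was not shown to differ between them.

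**Figure D5:**
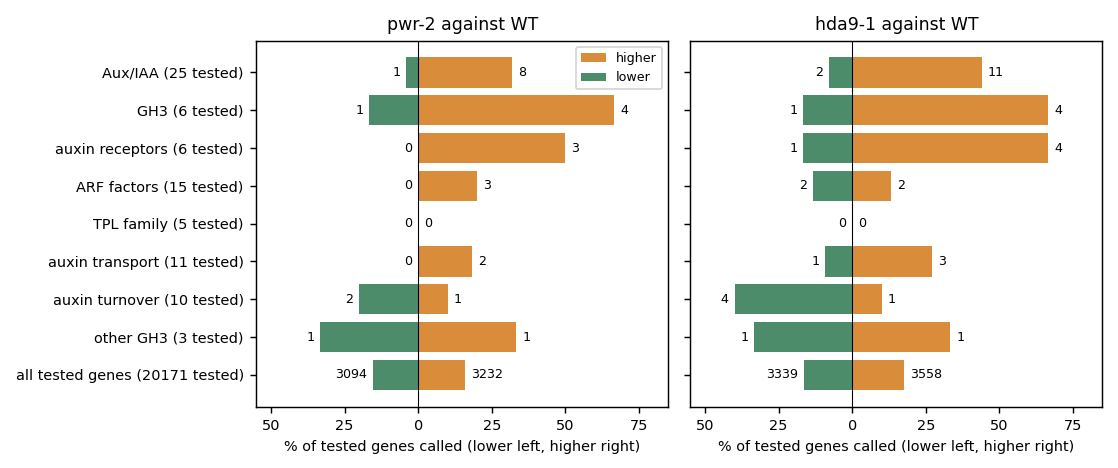
Share of tested genes called lower (green, left) or higher (orange, right) in percent (x axis) for the Aux/IAA and GH3 genes, the other auxin lists and all tested genes, in pwr-2 (left panel) and hda9-1 (right panel); numbers at the bars are genes. In hda9-1, 11 of 25 Aux/IAA genes and 4 of 6 GH3 genes were higher, and none of the 5 TPL family genes was called in either mutant.

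The rest of the auxin pathway was described from lists of its parts, to be read against the 31.4% of all tested genes that were called in pwr-2 and the 34.2% called in hda9-1, in either direction. Of the 6 receptors, which bind auxin together with an Aux/IAA protein, 3 rose and none fell in pwr-2 (50% called), and 4 rose and 1 fell in hda9-1 (83.3%). AFB5 rose by 0.37 in each mutant (log2; adjusted p = 0.000648 and 0.000485), AFB1 by 0.31 and 0.41 (0.000883 and 9.5e-05) and AFB4 by 0.36 and 0.32 (0.00214 and 0.00319), in pwr-2 and hda9-1. AFB3 fell in hda9-1 by 0.18 on the log2 scale (adjusted p = 0.0273), but not without WT replicate 3 or hda9-1 replicate 2 (0.0561 and 0.0678) or with DESeq2 (0.0557), and with loess offsets it also fell in pwr-2 (-0.16, 0.0329). AFB2 rose in hda9-1 by 0.15 (adjusted p = 0.0473), close to the threshold, and was not followed under the other settings. DESeq2 called 3 of the 6 receptors in each mutant. Of the 15 ARFs, the factors that Aux/IAA proteins hold back, 3 rose and none fell in pwr-2 (20% called), and 2 rose and 2 fell in hda9-1 (26.7%), shares below those of all tested genes. ARF3 rose in pwr-2 (0.23, adjusted p = 0.00337) and ARF16 fell in hda9-1 (-0.30, adjusted p = 0.00237). ARF6 and ARF7, activators, rose in pwr-2 by 0.20 and 0.28 (0.0142 and 0.0115), lost with loess offsets (0.474 and 0.0735) and, for ARF6, without pwr-2 replicate 1 (0.0556). In hda9-1 they had 0.12 and 0.11 (0.103 and 0.264), and passed without hda9-1 replicate 1 (0.0387 and 0.0421). The hda9-1 calls of ARF3 (0.16), ARF8 (-0.15) and ARF10 (0.23) had adjusted p of 0.0214, 0.0236 and 0.035 and were each lost without WT replicate 1 (0.0853, 0.0754 and 0.121) or hda9-1 replicate 2 (0.0793, 0.0631 and 0.143), and that of ARF10 also without WT replicate 2, hda9-1 replicate 1 or pwr-2 replicate 2 (0.17, 0.0784 and 0.0579). Of these hda9-1 calls, that of ARF3 was lost with upper-quartile factors (0.08, adjusted p = 0.159) and loess offsets (0.05, 0.412), that of ARF8 with DESeq2 (0.117), and that of ARF10 with upper-quartile factors (0.15, 0.165) and DESeq2 (0.108). In pwr-2, ARF8 and ARF16 fell with upper-quartile factors (-0.18 and -0.23, adjusted p = 0.0099 and 0.0138) and with loess offsets (-0.19 and -0.17, 0.0102 and 0.0484). ARF16 also fell there without hda9-1 replicate 1 (0.0436) and over only the pwr-2 and WT libraries (0.0466). None of the 5 TPL corepressor genes passed in edgeR or DESeq2. At an unadjusted p under 0.05, 1 did in pwr-2 (TPR1) and 0 in hda9-1.

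Of 11 tested auxin transport genes, 2 rose in pwr-2 (18.2% called), and 3 rose and 1 fell in hda9-1 (36.4%), which is below the share of all tested genes in pwr-2 and close to it in hda9-1. The efflux carrier PIN3 rose by 0.37 and 0.32 (log2; adjusted p = 0.0018 and 0.00334) and the influx carrier LAX3 by 0.38 and 0.50 (0.00317 and 0.000468), in pwr-2 and hda9-1. LAX1 rose in hda9-1 (0.23, adjusted p = 0.0154; 0.0536 without WT replicate 1, 0.0546 without WT replicate 2 and 0.0648 with loess offsets), and PIN5 fell there (-0.35, adjusted p = 0.0449), a call lost when any 1 of the 9 libraries was left out (0.0526 to 0.115), with the replicate block (0.058), with DESeq2 (0.21), with loess offsets (-0.13, 0.491), with no filter (0.0724) and over only the hda9-1 and WT libraries (0.0749). In pwr-2, LAX1 had 0.17 and missed the threshold (0.0563). It passed there without WT replicate 3, hda9-1 replicate 1 or hda9-1 replicate 3 (0.0333, 0.0413 and 0.015). It also passed over only the pwr-2 and WT libraries (0.0183). Of 10 tested genes of auxin turnover, 1 rose and 2 fell in pwr-2 (30% called), and 1 rose and 4 fell in hda9-1 (50%). IAMT1, which methylates auxin, rose by 0.50 and 0.41 (0.00687 and 0.0165; in hda9-1 0.08 without WT replicate 1, 0.0733 without hda9-1 replicate 2 and 0.0621 with DESeq2), and the amidohydrolase gene ILL3 fell by 0.49 and 0.51 (0.0136 and 0.0108; in pwr-2 0.0615 without WT replicate 1, 0.0537 without pwr-2 replicate 3 and 0.0589 with DESeq2), in pwr-2 and hda9-1. With loess offsets both ILL3 calls were lost (-0.28 and -0.29, adjusted p = 0.103 and 0.0957). The auxin oxidase gene DAO2 fell by 0.61 in pwr-2 (0.00758) and by 0.44 in hda9-1 (0.0301). The DAO2 call in hda9-1 was lost when WT replicate 1, 2 or 3 or hda9-1 replicate 2 or 3 was left out (0.0569, 0.0892, 0.0657, 0.116 and 0.0875), with DESeq2 (0.0624) and with loess offsets (-0.27, 0.132). DAO1 fell by 0.37 in hda9-1 (0.0127; -0.24 and 0.101 with loess offsets) and had -0.09 in pwr-2 (0.492). UGT74D1 fell by 0.16 in hda9-1 (0.0263), but not without WT replicate 1 or 2 or hda9-1 replicate 2 (0.0809, 0.0595 and 0.0542) or with DESeq2 (0.158). Of 3 tested GH3 relatives that act on other acids, PBS3, of salicylic acid synthesis, fell by 1.65 and 1.66 (0.00259 and 0.0022) and DFL2 rose by 0.21 and 0.22 (0.0102 and 0.00753; both calls lost with loess offsets, at 0.09 and 0.10, adjusted p = 0.144 and 0.113), while JAR1, of jasmonate activation, had 0.05 and -0.07 and did not pass.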

How the data were processed

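Whole-seedling polyadenylated RNA of pwr-2, hda9-1 and WT was sequenced with a stranded kit in 9 libraries, 3 per group, per the labels' protocols. The deposited values are raw read counts per gene, which the authors made with no normalization. The aligner HISAT2 and the TAIR10 build come from the submitters' processing notes, and the counting tool, its strand setting and its handling of duplicate or multiply mapped reads are not given in the sources used here. Counts of overlapping or near-identical genes are therefore uncertain.

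Counts were fitted with edgeR 4.0.16 in R 4.3.3 (TMM factors, filterByExpr, quasi-likelihood F test, genotype as the only term over all 9 libraries), with Benjamini-Hochberg adjustment over 20171 genes. Standard errors were taken from each log2 fold change and its F statistic, and 95% intervals use the t distribution of the same fit. CPM scale each count by the library total times its TMM factor. Floors of 3 counts cover counting error only. On simulated counts, 76.1%, 92.5% and 100% of genes changed by 0.5, 1 and 2 (log2) were recovered for pwr-2 against WT (20141 genes, 9.14% of calls false). The shares were 74.6%, 95.5% and 100% for hda9-1 against WT (20136 genes, 5.76%), and 70.1%, 97% and 100% for pwr-2 against hda9-1 (20098 genes, 4.81%). Only 66 or 67 genes per size were changed, none of them of low level, and libraries were not paired. These rates therefore do not cover IAA5, IAA20, IAA30 or IAA32, or changes under 0.5.

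The members and the gene lists were chosen with earlier results of these data known. All members were to be accounted for, with values in every library for those called in a mutant, and up to 4 called genes of each other auxin list were to be named. AFB2 was named beyond that plan. Members given with library values although not called, and the sequences shown, were chosen after their values were seen. Same-numbered WT and hda9-1 libraries deviated together from their group means over all genes (correlations 0.359, 0.448 and 0.456), although the labels do not state pairs. The main fit, with its SE, intervals and adjusted p, did not pair them. The fit with replicate number as a block is given where it changes a call. Alternatives were RLE, upper-quartile and loess scaling, no filter, DESeq2 1.42.0, only the 2 groups compared, the block and leaving out each library. The block over only the hda9-1 and WT libraries was added after seeing the data. Names, positions and sequences come from RefSeq annotation of TAIR10.1.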

Additional observations from a re-analysis of the deposited data

How the results depend on the processing

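No called member changed direction under any setting tried. The number of members called higher was 10 to 14 in pwr-2 and 13 to 16 in hda9-1 over all settings. The number called lower was 1 with DESeq2 in each mutant and 1 with loess offsets in pwr-2, and leaving out 1 library gave 1 to 2 in pwr-2 (1 when any WT replicate or pwr-2 replicate 2 or 3 was left out) and 1 to 3 in hda9-1 (1 without WT replicate 2 or hda9-1 replicate 2). For pwr-2 against hda9-1 it stayed at 0 under every setting. DESeq2 called 10 members higher in pwr-2 and 14 in hda9-1. With the replicate block over all libraries, 12 members were higher and 3 lower in pwr-2, where same-numbered pwr-2 and WT libraries did not deviate together (correlations -0.123, -0.014 and -0.128, and -0.221, -0.189 and -0.241 with hda9-1) and share only a number: IAA17 lost its call, and IAA8 and IAA32 gained one (adjusted p = 0.0592, 0.0464 and 0.047). In hda9-1 the block left 15 higher and 3 lower, with IAA17 and IAA4 exchanged. Over the hda9-1 and WT libraries alone, a setting added after seeing the data, it gave 16 higher and 4 lower, with IAA4 and IAA29 gained. In that last setting the genes called over all tested genes also grew, from 6897 to 9472. The block changed no other call of a member. Over all tested genes, 6326 were called in pwr-2 and 6897 in hda9-1, and leaving out 1 library gave 3917 (without pwr-2 replicate 2; 4126 without WT replicate 1) to 7581 in pwr-2 and 4932 to 7137 in hda9-1. DESeq2 called 4512 and 5086. The 85 genes called between pwr-2 and hda9-1 became 158 with loess offsets and 179 with no filter and with DESeq2, and 9 to 252 with 1 library left out: 9, 11 and 252 without pwr-2 replicate 1, 2 or 3, 10, 11 and 49 without hda9-1 replicate 1, 2 or 3, and 27 and 148 without WT replicate 2 or 3. The causes of these shifts were not tested. Members under about 10 CPM, among them IAA5, IAA20, IAA29, IAA30 and IAA32, had the widest errors, and depth limits what they can show.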
